A study of Mus musculus with 12 samples.

Results

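The insulin-like growth factor (IGF) axis was taken as 10 genes chosen by symbol, namely the ligands Igf1 and Igf2, the receptors Igf1r and Igf2r, and the binding proteins Igfbp2, Igfbp3, Igfbp4, Igfbp5, Igfbp6 and Igfbp7. All 10 were found among the 21004 genes of the deposited table, and all 10 were among the 14675 genes kept by a filter of at least 1 FPKM in at least 3 libraries. FPKM divides the fragments of a gene by its transcript length and by the library's total, so levels of different genes can be set side by side. Messenger RNA of the testis of ICR mice, an outbred strain, aged 8 weeks was sequenced in 12 libraries, 3 in each of 4 groups. The control group carries no treatment in its label, the second is labelled L.J. at 10 mg/kg, the third busulfan, and the last both busulfan and L.J. at 10 mg/kg. The labels leave L.J. unexplained, and busulfan is a DNA-alkylating agent that kills dividing germ cells. The dose of busulfan, the interval from treatment to sampling, and whether each library is a separate animal were not given in the sources used here, so a p-value measures only the spread between these libraries.

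IGF1 and IGF2 are secreted peptides that signal through the tyrosine kinase encoded by Igf1r. The receptor encoded by Igf2r takes IGF2 up for breakdown, and the binding proteins hold the ligands in blood and tissue and set how much of them reaches the receptor. In the mouse testis, signalling through the insulin and IGF receptors is needed for Sertoli cells to multiply, and IGF1 promotes the maturation and steroid production of Leydig cells. Igf2 is expressed from the paternal allele and Igf2r, in the mouse, from the maternal allele.

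The markers of the cell types gave the setting for every level below. The summed FPKM of 11 elongating spermatid markers ran from 2899 to 11270 in the control libraries, from 6026 to 28300 in the L.J. libraries, and from 39700 to 59030 in the 6 libraries whose labels name busulfan. The 15 Sertoli cell markers summed to 1298 to 2502 FPKM in controls, 1085 to 5388 FPKM in L.J. and 588.6 to 703.5 FPKM in those 6 libraries. None of these markers was at 0 in any library. The libraries labelled busulfan were thus the richest in spermatid transcripts, although busulfan is known for the loss of germ cells. The groups below are named as labelled; whether the labels are right was not tested, and exchanged labels would turn the directions given here. L.J. replicates 2 and 3 stood apart from each other, with a mean log2(FPKM + 1) of the spermatid list of 10.39 and 8.27 and of the Sertoli list of 4.20 and 6.2. In whole tissue, fewer cells of a type and less RNA per cell cannot be told apart.

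Igfbp2 and Igfbp5 are neighbours and had the largest differences of the 10 genes between L.J. and control, where no gene was called. Igfbp3 spanned the widest range of the 10. Promoters of these 3 binding protein genes are shown. Each is the 250 bases before a transcript start from RefSeq (GRCm38.p6), written 5′ to 3′ on the gene's own strand, and that of Igfbp3 lies inside the gene's full span because its annotated end is farther out. Capitals mark matches on either strand to the motif TATANA, where N is any base, known from the TATA box, to the motif GGGCGG, known as a GC box, or to the E-box motif CACGTG.
Igfbp2, chr1:72824230-72824479, plus strand: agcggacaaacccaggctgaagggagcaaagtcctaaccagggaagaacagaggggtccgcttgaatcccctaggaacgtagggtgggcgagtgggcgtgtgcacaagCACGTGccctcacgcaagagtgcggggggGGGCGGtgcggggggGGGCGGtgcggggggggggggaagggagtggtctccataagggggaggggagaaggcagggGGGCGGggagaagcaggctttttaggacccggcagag
Igfbp5, chr1:72874866-72875115, minus strand: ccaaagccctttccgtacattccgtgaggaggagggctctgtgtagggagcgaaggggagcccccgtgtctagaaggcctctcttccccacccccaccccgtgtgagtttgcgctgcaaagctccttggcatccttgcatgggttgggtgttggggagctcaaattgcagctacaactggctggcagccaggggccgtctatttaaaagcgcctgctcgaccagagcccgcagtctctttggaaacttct
Igfbp3, chr11:7213924-7214173, minus strand: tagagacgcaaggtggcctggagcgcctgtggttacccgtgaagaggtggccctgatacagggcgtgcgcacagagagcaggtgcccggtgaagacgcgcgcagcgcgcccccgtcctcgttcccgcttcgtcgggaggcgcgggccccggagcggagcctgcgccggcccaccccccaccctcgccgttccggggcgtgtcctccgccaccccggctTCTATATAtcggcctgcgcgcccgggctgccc
The Igfbp2 window held 3 matches to GGGCGG and 1 to CACGTG, with 14 CpG dinucleotides. The Igfbp5 window held 10 CpG dinucleotides and no match to any of the 3 motifs. In Igfbp3, both matches to TATANA overlapped and lay 32 to 25 bases before the transcript start, in a window with 32 CpG dinucleotides. The neighbours Igfbp2 and Igfbp5 therefore shared none of the 3 motifs in these windows. Of 32851 RefSeq windows, 22.6% held TATANA, 32.7% GGGCGG and 6.02% CACGTG. All 10 genes matched RefSeq, with 14 windows in all, and a median of 12.5 CpG dinucleotides in these windows against 6 over all windows. TATANA was found in windows of Igfbp3, Igfbp4 and Igfbp6, and GGGCGG in those of Igf1r, Igf2, Igf2r, Igfbp2 and Igfbp7. A match is a run of letters and not a bound site.

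Igf1 (gene ID 16000, GRCm38 chr10:87858265-87937047), the ligand that mediates much of the action of growth hormone, measured 5.89, 3.93 and 8.65 FPKM in control replicates 1, 2 and 3. It measured 3.88, 2.41 and 9.72 FPKM in L.J., 1.70, 1.67 and 1.91 FPKM in busulfan, and 2.11, 1.47 and 1.39 FPKM in busulfan plus L.J. All 6 libraries labelled busulfan lay below all 6 others, and L.J. replicate 3 was the highest of the series. Between busulfan and control the log2 change of FPKM + 1 was -1.32 ± 0.36 (SE; adjusted p = 0.0106, limma). Changes below are on this scale, which understates the ratio of genes near 1 FPKM, and each adjusted p is a Benjamini-Hochberg value over the 14675 genes tested.

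Igf2 (16002, chr7:142650768-142666816), the ligand best known for growth of the fetus, was the more abundant ligand in all 12 libraries. It measured 15.91, 11.06 and 11.52 FPKM in control and 13.75, 6.53 and 17.93 FPKM in L.J. In busulfan it measured 3.26, 4.73 and 5.12 FPKM, and in busulfan plus L.J. 4.05, 5.35 and 4.96 FPKM. The busulfan-labelled groups did not overlap control or L.J., and the difference of busulfan from control was -1.37 ± 0.30 (adjusted p = 0.00525, limma). Igf2 exceeded Igf1 by a ratio of 2.28 ± 0.82 (SD, n = 3) in control, 2.70 ± 0.85 in L.J., 2.48 ± 0.49 in busulfan and 3.04 ± 0.97 in busulfan plus L.J. These ratios overlapped between all 4 groups, with control replicate 3 the lowest at 1.33.

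Igf1r (16001, chr7:67952257-68233668), the signalling receptor, measured 5.2, 4.06 and 6.43 FPKM in control and 2.99, 2.13 and 10.40 FPKM in L.J. It measured 1.86, 1.03 and 1.25 FPKM in busulfan and 1.44, 1.29 and 1.06 FPKM in busulfan plus L.J. The busulfan libraries lay below all control libraries, by -1.39 ± 0.38 (adjusted p = 0.0111, limma). In L.J. it ran nearly as the Sertoli markers did, highest in replicate 3 and lowest in replicate 2. Igf2r (16004, chr17:12682406-12769706), the clearance receptor, was the lowest of the 10 genes in control, with 2.68, 2.33 and 3.40 FPKM. It measured 1.67, 1.59 and 3.82 FPKM in L.J., 1.77, 1.08 and 1.14 FPKM in busulfan, and 1.11, 1.41 and 1.17 FPKM in busulfan plus L.J. Its fall in busulfan, -0.71 ± 0.24 (adjusted p = 0.0233, limma), was the smallest of the 10. That call was lost without control replicate 1 (adjusted p = 0.0532, limma), control replicate 3 (0.0873), busulfan replicate 2 (0.0764) or busulfan replicate 3 (0.0723).

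The 2 receptors did not differ between the groups to the same degree. The ratio of Igf1r to Igf2r within a library was 1.94, 1.74 and 1.89 in control, and 1.05, 0.954 and 1.10 in busulfan. In L.J. it was 1.79, 1.34 and 2.72, and in busulfan plus L.J. 1.30, 0.915 and 0.906. All 6 libraries labelled busulfan lay below all 6 others, and the 3 libraries of L.J. spread more widely than any other group. A ratio within a library is untouched by a factor that multiplies all its genes. With 3 libraries in each group, the smallest p an exact two-sided permutation test can give is 0.10, so none is quoted for single ratios.

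Among the binding proteins, Igfbp7 (29817, chr5:77349240-77408045), a related protein that binds IGFs only weakly and is known from blood vessels and matrix, was the most abundant of the 10 genes in every library. It measured 86.55, 58.96 and 91.02 FPKM in control and 43.90, 26.09 and 79.66 FPKM in L.J. In busulfan it measured 31.71, 19.17 and 25.01 FPKM, and in busulfan plus L.J. 28.44, 24.88 and 24.21 FPKM. Control and busulfan did not overlap, with a difference of -1.61 ± 0.33 (adjusted p = 0.00461, limma). L.J. replicate 2 lay among the busulfan-labelled libraries, and L.J. replicate 3 among the controls.

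Igfbp2 (16008, chr1:72824480-72852474), which carries IGF2 in preference to IGF1 and can also bind integrins, was the next in control with 27.09, 25.25 and 35.37 FPKM. It measured 14.04, 6.91 and 15.14 FPKM in L.J., 13.70, 7.92 and 11.36 FPKM in busulfan, and 12.04, 10.16 and 10.14 FPKM in busulfan plus L.J. Every library of the other 3 groups was below every control library, and these 3 groups overlapped one another. The difference of busulfan from control was -1.35 ± 0.27 (adjusted p = 0.00429, limma).

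Igfbp3 (16009, chr11:7206086-7215498), the main carrier of IGFs in blood, spanned the widest range. It measured 19.17, 6.76 and 14.83 FPKM in control and 3.88, 3.38 and 34.36 FPKM in L.J. In busulfan it measured 1.05, 0.97 and 1.45 FPKM, and in busulfan plus L.J. 1.13, 0.83 and 1.52 FPKM. The 6 busulfan-labelled libraries lay below all others, and L.J. replicate 3 was the highest of the series while the other L.J. libraries lay below all controls. The log2 change in busulfan was -2.66 ± 0.65 (adjusted p = 0.0071, limma), the largest of the 10.

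Igfbp4 (16010, chr11:99040005-99052655), an inhibitor of IGF action that the protease PAPP-A cleaves, measured 19.28, 12.59 and 24.91 FPKM in control and 12.11, 7.89 and 19.72 FPKM in L.J. It measured 5.72, 5.16 and 6.49 FPKM in busulfan and 7.40, 6.31 and 6.85 FPKM in busulfan plus L.J. Busulfan lay below control without overlap (-1.51 ± 0.29, adjusted p = 0.00403, limma). Igfbp6 (16012, chr15:102144186-102149512), which prefers IGF2, measured 21.81, 16.74 and 30.84 FPKM in control and 15.15, 7.94 and 27.13 FPKM in L.J. It measured 7.46, 3.74 and 6.08 FPKM in busulfan and 5.35, 4.88 and 5.38 FPKM in busulfan plus L.J. After Igfbp3 it had the largest difference between busulfan and control, -1.83 ± 0.37 (adjusted p = 0.00427, limma).

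Igfbp5 (16011, chr1:72858065-72874865), a binding protein that also attaches to matrix, was the least abundant of the 6 binding proteins in control, with 3.37, 3.92 and 8.35 FPKM. It measured 3.0, 0.55 and 1.64 FPKM in L.J., 1.34, 1.47 and 2.13 FPKM in busulfan, and 2.17, 1.17 and 1.54 FPKM in busulfan plus L.J. As with Igfbp2, every library outside the control group lay below every control library. The difference of busulfan from control was -1.16 ± 0.35 (adjusted p = 0.016, limma), and without control replicate 3 it was -0.82 (adjusted p = 0.0711, limma). Control replicate 3 also had the highest summed adipocyte and epididymis markers, though not every marker was highest there. The 7 adipocyte markers summed to 200.8 FPKM there and 22.28 and 51.95 FPKM in control replicates 1 and 2, with none at 0. Fabp4 made up 132.48 FPKM of that sum, while Adipoq, at 9.74 FPKM, was higher in busulfan replicates 1 and 3 (10.35 and 9.94 FPKM). The 10 epididymis markers summed to 557.1 FPKM there against 25.42 and 72.25 FPKM. Most of the epididymis sum was Crisp1 at 502.83 FPKM, while Lcn5, Lcn8, Lcn9 and Spint4 were at 0. Cst8 was at 23.35 FPKM there, against 131.06 to 172.27 FPKM in the 6 busulfan-labelled libraries, where it made up most of the sum. In the other groups the sums were 9.91 to 45.38 FPKM for adipocytes and 35.67 to 175.3 FPKM for epididymis, with 2 to 7 epididymis markers at 0. The part of these cells in the Igfbp5 value was not tested.

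**Figure D1:**
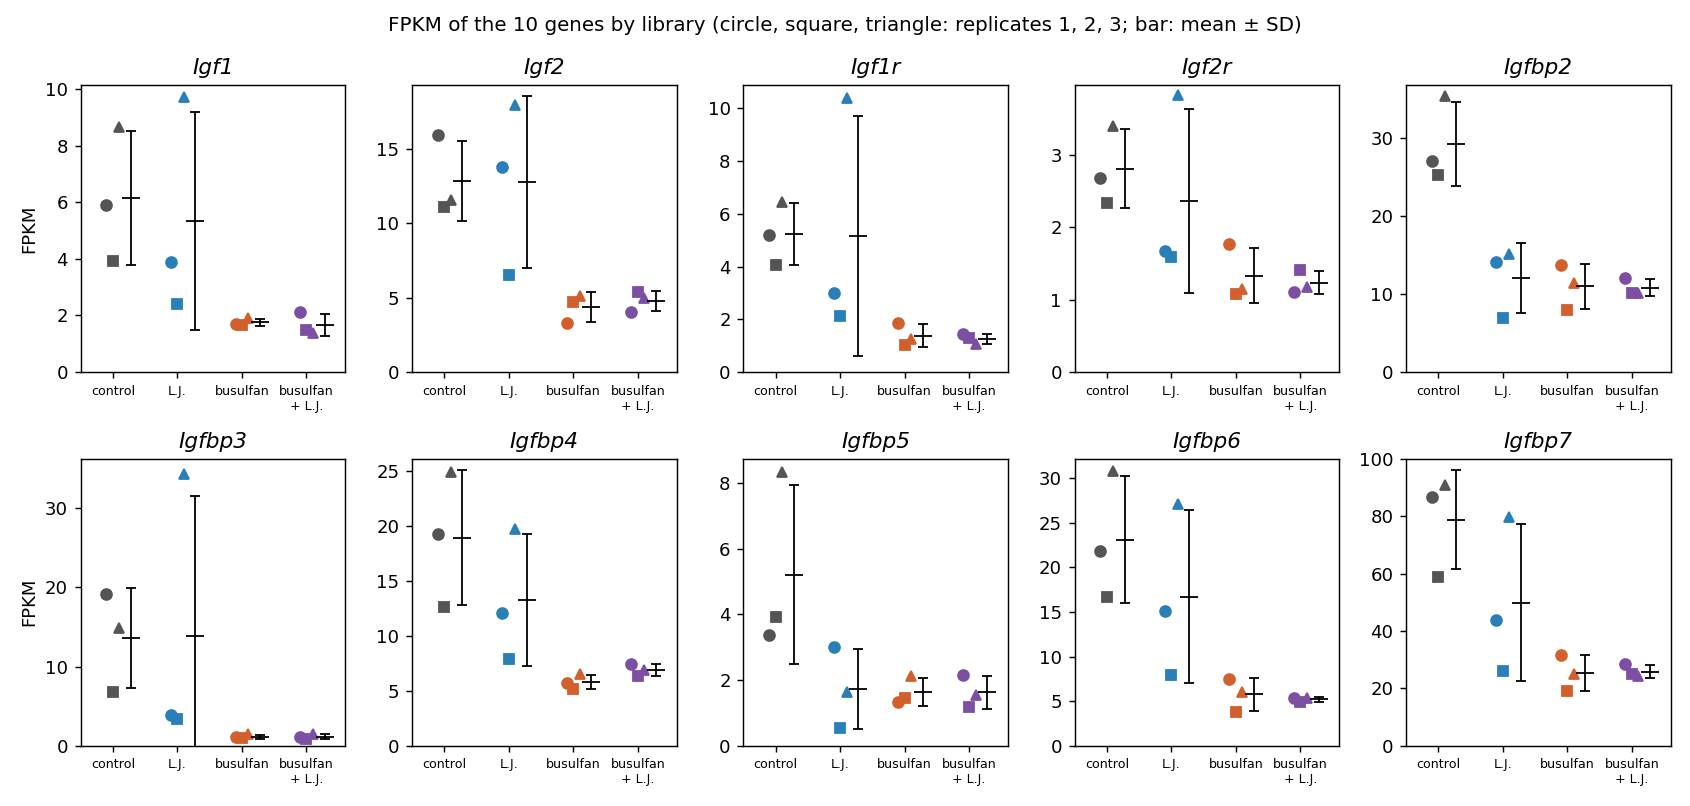
FPKM of each of the 10 genes as deposited (vertical axis, linear from 0, its own range for each gene) in the 4 labelled groups, with 1 point per library and the mean and SD (n = 3) as bars, which are cut at 0. The busulfan-labelled points lie below all control points in every panel, and L.J. replicate 3 (triangle) reaches 34.36 FPKM for Igfbp3, above every control.

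In all, 10 of 10 genes were lower in busulfan than in control as deposited, with a median change of -1.38, but scaled to Sertoli markers the values of 7 of 10 were above 0, and scaled to Leydig markers those of 8 of 10, of which Igf2r alone passed the threshold under either. Of all genes tested, 51.4% were called lower and 12.4% higher as deposited, 63.7% in either direction, and in 76.8% the groups did not overlap. The median change over all genes was -0.51. A fall as such was therefore the common case in this comparison, and the 10 of 10 is to be read against 51.4%. The 10 genes were chosen with earlier results of these data known, so their count beside that share is a description and not a test.

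The direction depended on the scaling of the libraries. The 15 Sertoli markers and the 10 Leydig markers all fell in busulfan, with medians of -1.49 and -1.77, and so did 6 of 6 peritubular myoid and 8 of 8 macrophage markers, with medians of -1.58 and -1.42. The 11 elongating spermatid markers all rose, with a median of 2.82. Scaled to the mean of the Sertoli markers, the median of all genes was 1.03. Among the 10, only Igfbp3 (-1.12, adjusted p = 0.0248, limma) and Igf2r (0.83, adjusted p = 0.0451) passed the threshold, Igf2r in the opposite direction. Under this scaling 39.6% of all genes were called, and 1 gene of all tested, which was Igfbp3, was called lower. Scaled to Leydig markers, the median of all genes was 1.17, and 77.3% of all genes were called, all but 1 gene higher. Igf2r was there at 0.97 (adjusted p = 0.0162, limma) and Igfbp3 at -0.98 (adjusted p = 0.0599). Both marker scalings shift every gene of a library alike. The order of the 10 changes was thus fixed by the deposited values, with Igfbp3 lowest and Igf2r highest. Each of the 10 genes lay below the median of all genes as deposited and under quantile normalization. Their distance to that median is by construction the same under median, Sertoli and Leydig scaling as in the deposited values. With libraries brought to a common median of all genes, which left a median change of 0.05, 6 of 10 were called, all lower, and Igf1, Igf1r, Igf2r and Igfbp5 were not. Of all genes 30.8% were called under that scaling and 9.67% were called lower. Quantile normalization left 8 of 10, without Igf2r and Igfbp5, where 35.5% of all genes were called and 18.8% were called lower. The part of tissue makeup in these differences was not tested.

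**Figure D2:**
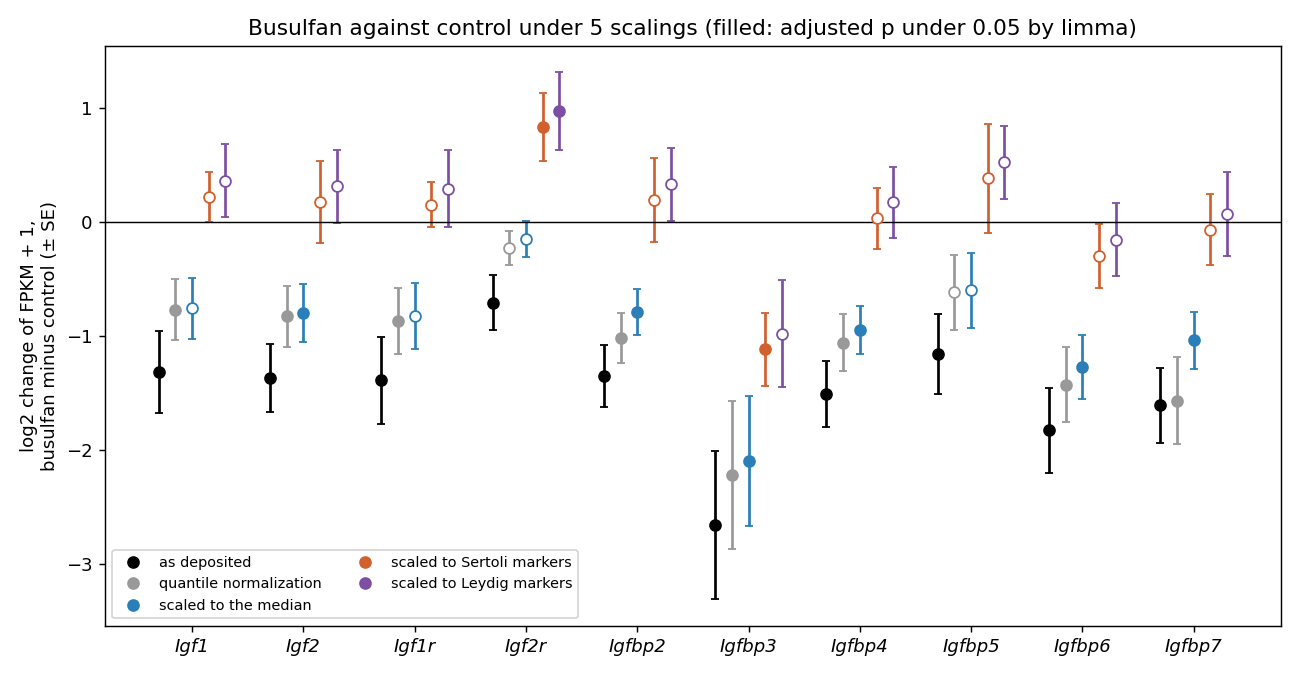
Log2 change of FPKM + 1 between busulfan and control for the 10 genes (vertical axis, points with SE bars from limma), as deposited and under 4 other scalings, with filled points for adjusted p under 0.05. All are below 0 as deposited, but scaled to Sertoli markers 7 of 10 lie above 0 and scaled to Leydig markers 8 of 10, with Igfbp3 below 0 under all 5.

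The order of the levels differed between the groups below the first rank, which Igfbp7 held in all 4. In control it ran Igfbp7, Igfbp2, Igfbp6, Igfbp4, Igfbp3, Igf2, Igf1, Igf1r, Igfbp5 and Igf2r, by means from 78.8 to 2.80 FPKM. Here the libraries of neighbours in the order overlapped except between Igfbp7 and Igfbp2 and between Igf2 and Igf1. In busulfan the order was Igfbp7, Igfbp2, Igfbp4, Igfbp6, Igf2, Igf1, Igfbp5, Igf1r, Igf2r and Igfbp3, by means from 25.3 to 1.16 FPKM. Igfbp7, Igfbp2 and the genes after it were separate there, as were Igf2 and Igf1. Igfbp3 held rank 5 in control and rank 10 in both groups labelled with busulfan. Igf2r, ranked next above it there, exceeded it in 2 of 3 busulfan libraries and 1 of 3 busulfan plus L.J. libraries, with overlapping ranges. In L.J. the order was Igfbp7, Igfbp6, Igfbp3, Igfbp4, Igf2, Igfbp2, Igf1, Igf1r, Igf2r and Igfbp5, and the libraries of every gene overlapped those of the next. Igfbp2 thus held rank 2 in control and rank 6 in L.J. The rank 3 of Igfbp3 in L.J. came from replicate 3, the only 1 of the 3 libraries in which it exceeded Igfbp4.

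Igfbp7 made up 44.3% to 52.0% of the summed FPKM of the 6 binding proteins in every library. The share of Igfbp3 was 10.8%, 5.44% and 7.22% in control and 1.72%, 2.52% and 2.76% in busulfan. In L.J. it was 4.21%, 6.41% and 19.3%, and in busulfan plus L.J. 2.0%, 1.72% and 3.06%. All busulfan-labelled libraries were below all others in this share. The share of Igfbp2 was 15.3% to 20.3% in control, 8.52% to 15.2% in L.J., 20.6% to 22.5% in busulfan and 20.4% to 21.3% in busulfan plus L.J. L.J. was lowest in this share and the busulfan-labelled groups highest, and none of these 3 ranges overlapped control's. The summed binding proteins exceeded the summed ligands by 8.13, 8.29 and 10.2 in control and by 5.22, 5.90 and 6.42 in L.J. In busulfan that ratio was 12.3, 6.0 and 7.47, and in busulfan plus L.J. 9.18, 7.07 and 7.82. The L.J. libraries lay below every control library, and the busulfan libraries spread on both sides of them.

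**Figure D3:**
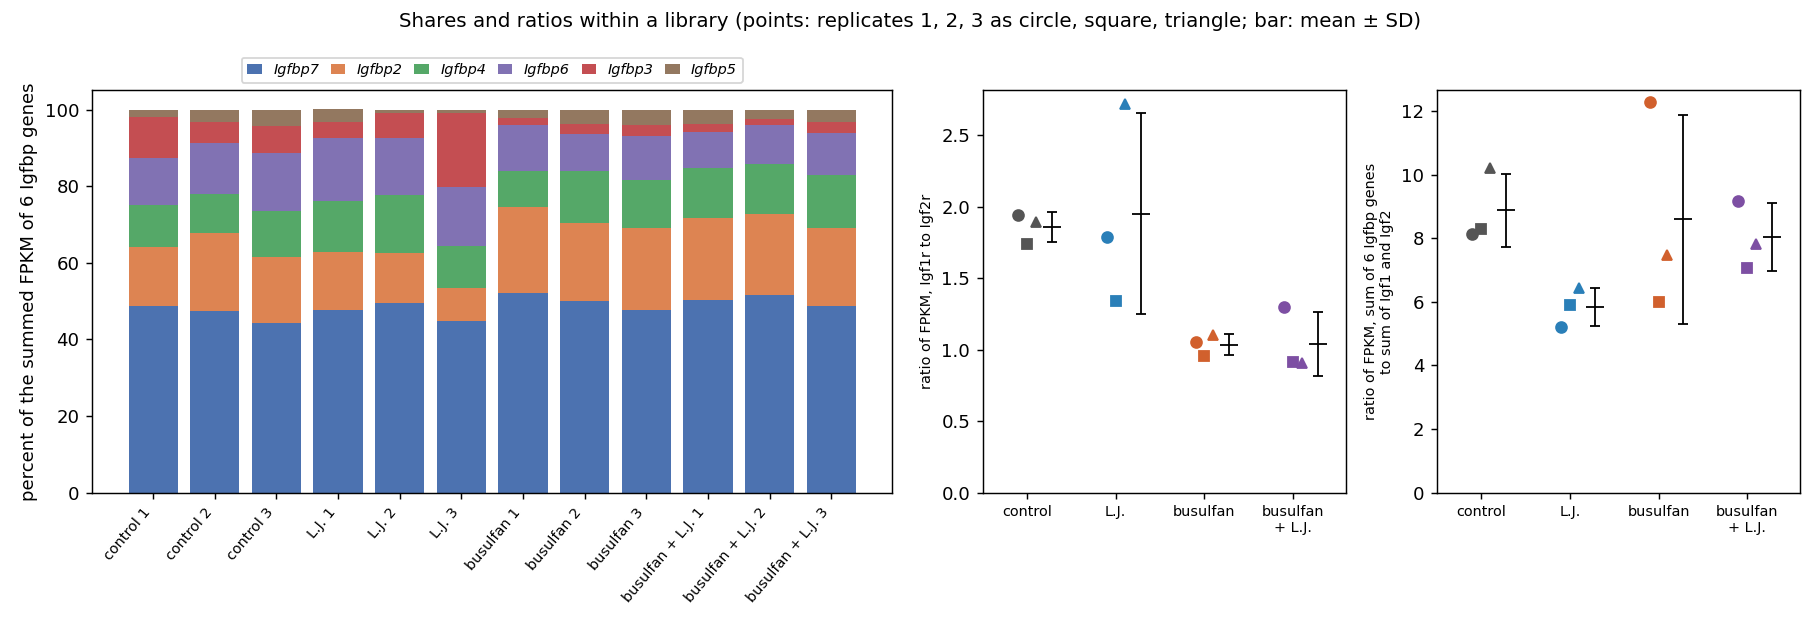
Left, percent of the summed FPKM of the 6 binding protein genes held by each gene, 1 stacked bar per library; middle and right, the ratio of Igf1r to Igf2r and of the summed binding proteins to the summed ligands, 1 point per library with mean and SD (n = 3). Igfbp7 holds 44.3% to 52.0% of every bar, and the receptor ratio is 0.906 to 1.30 in the 6 busulfan-labelled libraries against 1.74 to 1.94 in control.

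Whether L.J. alone altered the axis was asked by the comparison of L.J. with control. No gene of the 10 passed the threshold by limma, and none of all 14675 did (0%), with 3 of the 10 and 715 of all genes at an unadjusted p under 0.05. The 10 changes ran from -1.27 to -0.09 with a median of -0.54, against -0.11 for all genes. The neighbours Igfbp2 and Igfbp5, whose ends lie 5590 bases apart on opposite strands of chromosome 1, had the largest differences. Igfbp2 differed by -1.27 ± 0.27 (adjusted p = 0.843, limma), with a 95% interval of -1.86 to -0.67. Igfbp5 differed by -1.21 ± 0.35 (adjusted p = 0.843, limma), with a 95% interval of -1.98 to -0.43. They were the only 2 of the 10 whose L.J. and control libraries did not overlap, which held for 9.07% of all genes. Igfbp7 differed by -0.77 ± 0.33 (adjusted p = 0.843, limma), but by 0.15 once scaled to Leydig markers.

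The 10 Leydig markers moved alongside. Their mean log2(FPKM + 1) was 7.39, 6.88 and 7.63 in control and 6.83, 5.49 and 6.83 in L.J., with sums of 3805 to 6471 and 1209 to 4689 FPKM and none at 0. Scaled to these markers, the difference was -0.35 for Igfbp2 and -0.29 for Igfbp5, and scaled to Sertoli markers it was -1.16 and -1.09. The part of Leydig cells in these differences was not tested. Without 1 library at a time the difference ran from -1.46 to -0.94 for Igfbp2 and from -1.53 to -0.85 for Igfbp5. With weights that let the spread differ between libraries, 8 of 10 genes and 5162 of all genes were called, Igfbp2 among them at -1.01 (adjusted p = 0.00721, limma), while Igfbp5 was at -0.38 (adjusted p = 0.276, limma).

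**Figure D4:**
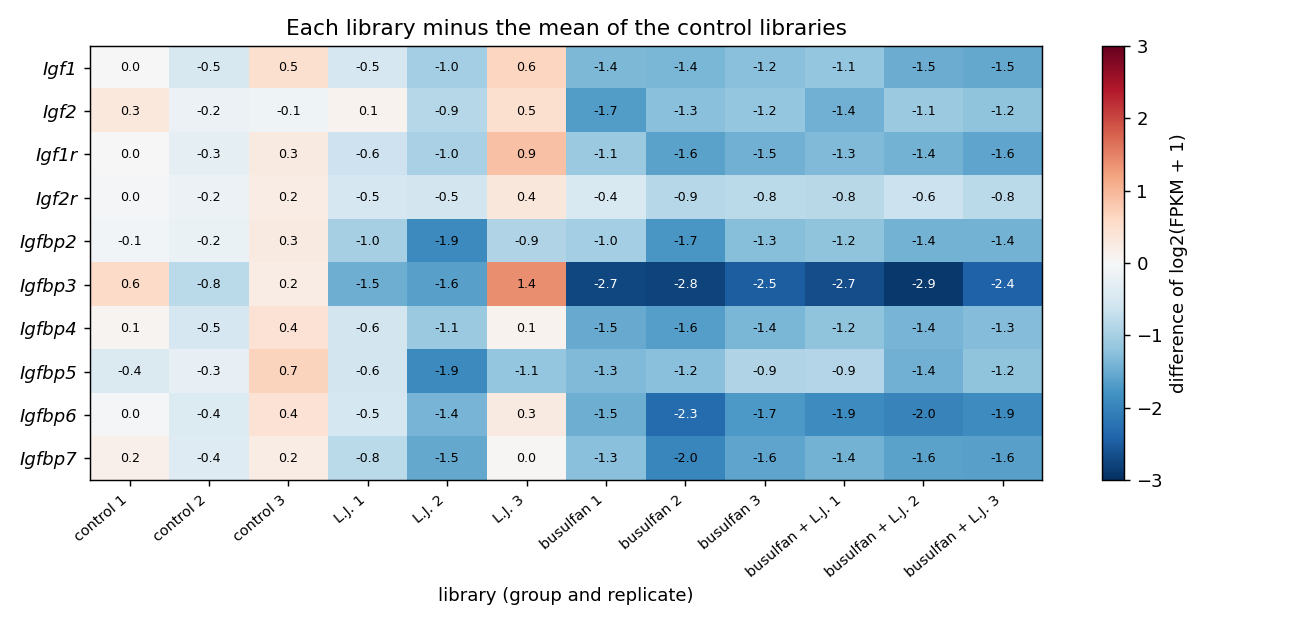
Log2(FPKM + 1) of the 10 genes (rows) in each of the 12 libraries (columns) minus the mean of the 3 control libraries, as deposited. Igfbp2 and Igfbp5 are below 0 in all 3 L.J. libraries and reach -1.92 in replicate 2, while Igfbp3 is at 1.39 in L.J. replicate 3 and -2.42 or lower in the 6 busulfan-labelled libraries.

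The series title presents L.J. as counteracting harm done to the testis by busulfan, and the difference between busulfan plus L.J. and busulfan bears on that. No gene of the 10 was called by limma, nor any of all 14675 (0%), and none of the 10 but 109 of all genes had an unadjusted p under 0.05. The differences ran from -0.08 for Igfbp6, which was 0.10 without busulfan replicate 1, to 0.21 for Igfbp4, with a median of -0.01. No gene of the 10 had groups without overlap, against 8.58% of all genes. The 95% intervals rest on the spread within all 4 groups, since 1 model held all 12 libraries. They were widest for Igfbp3, from -1.42 to 1.42, and narrowest for Igf2r, from -0.58 to 0.47. Those of Igfbp4 and Igfbp2 ran from -0.43 to 0.85 and from -0.59 to 0.59. The intervals are not adjusted for the number of genes tested, so they are not limits of what 3 libraries in each group could detect. Minus the control mean, Igfbp3 ran from -1.63 to 1.39 in L.J., but from -2.78 to -2.47 in busulfan and -2.89 to -2.42 in busulfan plus L.J. In a fit of the 2 groups alone, 465 of all genes had an unadjusted p under 0.05 by limma and 1 was called.

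Against control, busulfan plus L.J. gave 10 of 10 genes lower with a median of -1.37, where 53.5% of all genes were called lower and 13% higher, 66.5% in either direction, and 80.7% did not overlap. Under scaling to Sertoli or to Leydig markers 1 of the 10 was called, where 26.2% and 70.6% of all genes were called. This comparison shares its control libraries with that of busulfan, so both cannot be read as separate evidence. Igfbp3 changed by -2.66 ± 0.65 (adjusted p = 0.00564, limma) and Igfbp6 by -1.92 ± 0.37 (adjusted p = 0.00244, limma). Igf2r was again the least changed at -0.76 ± 0.24 (adjusted p = 0.016, limma), but not past the threshold without control replicate 3 (adjusted p = 0.0646), and at 0.69 (adjusted p = 0.0872) and 0.90 (adjusted p = 0.0254) when scaled to Sertoli and to Leydig markers. Against L.J., which shares the busulfan plus L.J. libraries, 6 of 10 genes were lower as deposited, where 39.8% of all genes were called lower and 11.7% higher, 51.5% in either direction, and 62.4% did not overlap. These were Igf1, Igf1r, Igf2, Igfbp3, Igfbp4 and Igfbp6. The median of the 10 was -0.94 and that of all genes -0.40. Igfbp3 differed by -2.09 ± 0.65 (adjusted p = 0.0238, limma) and Igfbp6 by -1.36 ± 0.37 (adjusted p = 0.0167, limma). Igfbp4 passed narrowly at -0.77 ± 0.29 (adjusted p = 0.0444, limma), with 0.56 when scaled to Sertoli markers. Igf2r, at -0.53 ± 0.24, and Igfbp7, at -0.78 ± 0.33, did not pass (adjusted p = 0.0779 and 0.0664, limma), and were at 0.81 and 0.56 when scaled to Sertoli markers, where neither passed (adjusted p = 0.0649 and 0.147). Igfbp2 and Igfbp5 were at -0.08 ± 0.27 and 0.03 ± 0.35 (adjusted p = 0.809 and 0.945, limma). Scaled to Sertoli markers, Igfbp2 was at 1.26 (adjusted p = 0.0412, limma), where 20% of all genes were called, all higher. The count of 6 became 2 without busulfan plus L.J. replicate 1 or 2 and 0 without replicate 3, and it was 0 in a fit of the 2 groups alone. Igfbp3 lost its call without busulfan plus L.J. replicate 1, 2 or 3 (adjusted p = 0.0579, 0.0672 and 0.0588, limma) and Igfbp6 without replicate 3 (0.0549). Igfbp4 lost its call without any of 9 libraries, that is all except control replicates 2 and 3 and L.J. replicate 2, with adjusted p from 0.0567 to 0.142 (limma). Without L.J. replicate 2, Igf2r and Igfbp7 passed as well (adjusted p = 0.0321 and 0.00501, limma). The levels of both neighbours overlapped between L.J. and busulfan plus L.J.

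The interaction asked whether the difference made by L.J. was the same with and without busulfan. No gene of the 10 was called by limma and none of all genes (0%), with 2 of the 10 and 182 of all at an unadjusted p under 0.05. Those 2 were Igfbp2, at 1.27 ± 0.38 (adjusted p = 1, limma), and Igfbp5, at 1.19 ± 0.50 (adjusted p = 1, limma). With weighted libraries 6 of 10 and 2523 of all genes were called.

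The likeness of each gene to the markers was described by the SD, over the 12 libraries, of its log2(FPKM + 1) minus the mean of a marker list. Igf1r kept the steadiest distance to the Sertoli list (SD 0.16, against 0.82 for Igf1r itself), and Igf1 to the macrophage list (0.17 against 0.77). Igfbp4 also kept closest to macrophages (0.18 against 0.72), Igf2r to endothelial cells (0.15 against 0.42) and Igfbp7 to Leydig cells (0.23 against 0.79). Igfbp2 and Igfbp5 were closest to Leydig cells too, at 0.33 and 0.44, each with its own SD of 0.68. Igfbp3 stayed at 0.62 from the Sertoli list with an SD of its own of 1.49. For these genes the SD of the distance was thus smaller than that of the gene itself, and it was largest for Igfbp3 and Igfbp5. Other lists came close, with Igf2r at 0.20 for spermatogonia, Igfbp4 at 0.23 for peritubular myoid cells and Igf1 at 0.23 for Sertoli cells. Igf2 was closest to macrophages (0.27), and Igfbp6 stood at 0.32 for Sertoli cells and 0.33 for Leydig cells and macrophages. All points share libraries and the deposited scaling, so these are descriptions and do not place a gene in a cell type.

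The genes whose patterns were most like each member's were found by the mean absolute difference of log2 values, each centred on its mean over the 12 libraries. Igfbp2 was most like Sdc1, a cell surface proteoglycan, at 0.136, and like Ugt1a6a, a glucuronosyltransferase, at 0.146. Igfbp5 was most like Upk3b at 0.121 and Tesc at 0.164, and Igfbp3 like Cpe, a prohormone-processing enzyme, at 0.192 and Ddr1, a collagen receptor, at 0.258. Igf1 was closest to Dram2 (0.069) and Gpd1l (0.071), Igf1r to Itprid2 (0.051) and Map1lc3b (0.057), and Igf2 to Armcx6 (0.157) and Osr1 (0.159). Igf2r was closest to Tspan9 (0.050) and Fry (0.053), Igfbp4 to Rcn3 (0.090) and Tmed9 (0.096), Igfbp6 to Hadh (0.095) and Tst (0.099), and Igfbp7 to Slc3a2 (0.088) and Cox7b (0.090). Among the 10 genes themselves, Igfbp2 and Igfbp5 were each other's nearest at 0.267, while Igf1 and Igfbp4 were at 0.131. The median distance to all genes kept was 0.447 for Igfbp2, 0.466 for Igfbp5 and 1.027 for Igfbp3.

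Of 47 other genes of the pathway, 46 were in the table and 35 passed the filter. In busulfan against control 22 of the 35 fell and 4 rose as deposited, with a median of -0.81, against the 51.4% and 12.4% of all genes. Among the binding partners and proteases, 3 of 4 fell, led by Htra1, a secreted serine protease that cleaves binding proteins. It measured 13.7 ± 4.27 FPKM (SD, n = 3) in control and 2.85 ± 0.43 in busulfan (-1.89, adjusted p = 0.0064, limma; -0.35 and -0.21 when scaled to Sertoli and to Leydig markers). Adamts5, a matrix protease, fell by 1.35 (adjusted p = 0.00879, limma) but was at 0.19 when scaled to Sertoli markers. Pappa, the protease that cleaves the protein of Igfbp4, was the one that rose, from 1.20 ± 0.23 to 2.54 ± 0.30 FPKM (0.69, adjusted p = 0.0239, limma). Its call was lost without control replicate 1 (adjusted p = 0.0631) or 3 (0.0793), or without busulfan replicate 1 (0.0636) or 3 (0.0649). In busulfan plus L.J. against control Pappa was not called (0.45, adjusted p = 0.104, limma). Igfals, which encodes the acid-labile subunit of the blood complex, stayed below the filter, and Igfbp1 was listed at 0 in all L.J. libraries and at a mean of 0.117 FPKM in control.

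Of 8 kept receptors and adaptors of the insulin branch, 6 fell as deposited, where 51.4% of all genes were called lower. Grb2, the adaptor that links receptors to Ras, was at -1.54 (adjusted p = 0.00519, limma), though at 0.14 when scaled to Leydig markers. Gigyf2, a partner of the adaptor Grb10, was the most abundant of this group at 32.9 ± 0.96 FPKM in control and 36.0 ± 4.98 in busulfan, and was not called as deposited (0.12, adjusted p = 0.437, limma). Under median, Sertoli and Leydig scaling Gigyf2 was called higher, at 0.68, 1.66 and 1.80 (adjusted p = 0.0128, 0.0231 and 0.00123, limma). Of all genes, 30.8%, 39.6% and 77.3% were called under these scalings. Of those calls 68.6% were higher under median scaling, and all but 1 gene under each marker scaling. Of 15 genes of PI3K, AKT and FOXO signalling, 9 fell and 2 rose, where 51.4% of all genes were called lower and 12.4% higher. Pdpk1, the kinase that activates AKT, stood at 27.2 ± 12.4 FPKM in control, 37.5 ± 17.8 in L.J., 102.5 ± 10.1 in busulfan and 94.9 ± 3.61 in busulfan plus L.J. Its rise in busulfan was 1.95 ± 0.32 (adjusted p = 0.00381, limma). Gsk3b, a kinase that AKT inhibits, rose by 0.54 (adjusted p = 0.00756, limma), and Mtor was at -0.12 (adjusted p = 0.556, limma), with 0.44 under median scaling (adjusted p = 0.158) and a call at 1.56 when scaled to Leydig markers (adjusted p = 0.0042). As deposited, the 2 genes called higher and the 9 called lower in this branch were near the shares of all genes.

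All 4 genes of growth hormone input fell as deposited, where 51.4% of all genes were called lower. Jak2, the kinase bound to the receptor, fell by 1.34 (adjusted p = 0.0128, limma) and the receptor gene Ghr by 1.12 (adjusted p = 0.0126, limma). Neither passed when scaled to Sertoli markers, at 0.19 and 0.42 (adjusted p = 0.414 and 0.312, limma). Jak2 lost its call without control replicate 3 (adjusted p = 0.0537) and Ghr without busulfan replicate 3 (0.0505). Of 4 regulators of Igf2 RNA, Igf2bp3, an RNA-binding protein named for Igf2 mRNA, rose from 19.5 ± 5.55 to 49.7 ± 5.07 FPKM (1.34 ± 0.30, adjusted p = 0.0056, limma). Plagl1, a transcription factor of the imprinted network, was at -0.17 (adjusted p = 0.51, limma) and at 0.40 under median scaling (adjusted p = 0.0807), and it was called higher when scaled to Sertoli or Leydig markers, at 1.37 and 1.51 (adjusted p = 0.0147 and 0.000856, limma). Pdpk1, Gsk3b, Pappa and Igf2bp3 were called higher in busulfan against control under all 5 scalings. Of all genes, 12.4% were called higher there as deposited. Quantile normalization called 35.5% of all genes, with 47.0% of the calls higher, and median scaling 30.8%, with 68.6% of the calls higher. Scaled to Sertoli and to Leydig markers, 39.6% and 77.3% of all genes were called, all but 1 gene higher under each. A call as higher was thus common under the marker scalings, also for Plagl1. Pdpk1, Gsk3b, Pappa and Igf2bp3 stood in the direction of the spermatid markers, and the part of germ cells in their rise was not tested. Neither L.J. against control nor busulfan plus L.J. against busulfan called any of the 35 genes by limma. Against control, busulfan plus L.J. gave 3 higher and 21 lower of 35, where 13% of all genes were called higher and 53.5% lower. Against L.J. it gave 3 higher and 16 lower, where 11.7% of all genes were called higher and 39.8% lower. Both shares were near those of all genes.

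Reads of overlapping genes could not be told apart where the counting gives no strand, and the strand setting was not given in the sources used here. Igf1 overlaps Igf1os, Igf2 overlaps Igf2os and Mir483, Igf2r overlaps Airn, Igf1r overlaps Gm51488 and Gm51487, and Igfbp7 overlaps Polr2b and Gm34648 in the RefSeq annotation. No gene overlapped Igfbp2, Igfbp3, Igfbp4, Igfbp5 or Igfbp6.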

How the data were processed

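Testis RNA of 12 libraries in 4 labelled groups was analysed from FPKM values that the authors deposited with 2 decimals. Alignment was with Bowtie 0.12.2 and the build mm10, per the submitters' processing notes. The quantifier, its annotation and strand setting, and whether libraries were scaled to one another were not given in the sources used here. Depth is unknown. Of low values in 175 genes 44.5% were whole multiples of the gene's smallest value within 0.1, that value included. This cannot give the depth, since the step of an FPKM value differs with the library's total.

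Genes with at least 1 FPKM in at least 3 libraries were kept, 14675 of 21004. Values were transformed as log2(FPKM + 1), and all 4 groups entered 1 linear model per gene in limma 3.58.1 (R 4.3.3) with trend (8 residual and 3.4 prior degrees of freedom). Within a comparison, Benjamini-Hochberg adjustment was over all genes kept, with a threshold of 0.05. Intervals are at 95%. Alternatives were scaling to Sertoli markers, to Leydig markers or to the median of all genes, quantile normalization, other pseudocounts and filters, a fit of the groups compared, a replicate block, a robust fit, array weights, and leaving out each library, or L.J. replicates 2 and 3 together, which was chosen after seeing the data.

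The 10 genes and all lists were chosen with earlier results of these data known. From the list of other pathway genes, the text names for each role the 2 with the highest mean FPKM and the 2 with the largest change past the threshold over the comparisons, plus Pappa and Gsk3b, chosen after their values were seen. For likeness it names the 2 nearest genes. Promoters and positions are from RefSeq for GRCm38. Symbols with the form of a date, 26 in all, were replaced by gene identifier.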

Additional observations from a re-analysis of the deposited data

How the results depend on the processing

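For busulfan against control, the count of 10 called genes became 6 under median scaling, 2 scaled to Sertoli markers and 1 scaled to Leydig markers, and it ran from 8 to 10 without 1 library at a time. Quantile normalization turned Plagl1 to 0.35, and median scaling turned Mtor to 0.44 and Plagl1 to 0.40. Scaled to Sertoli markers, Igf1 was at 0.22, Igf1r 0.15, Igf2 0.17, Igf2r 0.83, Igfbp2 0.19, Igfbp4 0.03, Igfbp5 0.38, Adamts5 0.19, Mtor 1.42, Jak2 0.19, Ghr 0.42 and Plagl1 1.37. Scaled to Leydig markers, Igf1 was at 0.36, Igf1r 0.29, Igf2 0.31, Igf2r 0.97, Igfbp2 0.33, Igfbp4 0.17, Igfbp5 0.52, Igfbp7 0.07, Adamts5 0.33, Grb2 0.14, Mtor 1.56, Jak2 0.33, Ghr 0.56 and Plagl1 1.51. These scalings set the markers' own fall to 0 by construction. For busulfan plus L.J. against control, 1 gene was called under either marker scaling, with Igf2r at 0.69 (Sertoli) and 0.90 (Leydig), and the count ran from 8 to 10 without 1 library. For busulfan plus L.J. against L.J., the count of 6 became 0 under quantile normalization, 1 under median scaling, 1 scaled to Sertoli markers, 0 scaled to Leydig markers, 3 at a pseudocount of 5, 0 in a fit of the groups compared, and 0 to 8 without 1 library. There Igfbp2 was at 0.32 (quantile), 0.39 (median), 1.26 (Sertoli) and 0.66 (Leydig), Igf2r at 0.81 (Sertoli) and 0.21 (Leydig), Igfbp4 and Igfbp7 both at 0.56 (Sertoli), and Igfbp5 at -0.01 (pseudocount 5) and -0.45 (array weights). Without 1 library, Igfbp2 ran from -0.41 to 0.11 and Igfbp5 from -0.32 to 0.36 there, and Igfbp6 from -0.32 to 0.10 for busulfan plus L.J. against busulfan. Igfbp7 was at 0.15 for L.J. against control scaled to Leydig markers. Array weights called 8 genes for L.J. against control and 6 for the interaction, where the counts were 0 without 1 library at a time. The cause was not tested. Over all genes, busulfan against control called 9350, and 5209, 4519, 5804 and 11342 under quantile, median, Sertoli and Leydig scaling, with 19.4% of calls higher as deposited and 47.0% and 68.6% under the first 2 and, but for 1 gene, all under each marker scaling; without 1 library it called 5842 to 10909. In the same order, busulfan plus L.J. called 9759 against control, and 6013, 5238, 3843 and 10364 under these scalings. Against L.J. it called 7556, and 3544, 3356, 2942 and 1637, with 0 in a fit of the groups compared and 0 to 9385 without 1 library. Array weights called 64 genes for busulfan plus L.J. against busulfan. Of the log2 changes of single genes in all alternatives, 828 kept direction and side of the threshold, 63 lost and 12 gained a call, and 47 changed sign. A minimum of 5 FPKM left out Igf2r, Igfbp5 and some other genes.

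Replicate numbers are shared between the groups, but in no comparison did every same-numbered pair deviate together with a correlation over 0.1. For replicates 1, 2 and 3 the correlations were -0.05, -0.01 and -0.12 for busulfan against control, 0.25, 0.09 and 0.12 for busulfan plus L.J. against busulfan, and -0.18, 0.76 and 0.62 for L.J. against control. In these comparisons 0, 5 and 4 of 6 libraries correlated best with their own number, a hint from the data and not the design, so the numbers were not taken as pairing. With a replicate block the counts were 10, 0, 0 and 10 in the first 4 comparisons, 7 in busulfan plus L.J. against L.J. and 0 for the interaction. Depth is unknown, so no counting error can be given for genes near 1 FPKM, and 3 libraries in each group limit what could be detected.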

Other observations

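The liver is the main source of circulating IGF1 and IGFBP1, and a small list of its transcripts varied between libraries. The 6 liver markers summed to 109.5 FPKM in busulfan plus L.J. replicate 1, where Alb, the gene of serum albumin, was at 40.31 FPKM, against 6.74 and 4.64 FPKM in replicates 2 and 3. Igf1 was at 2.11 FPKM in that library and at 1.47 and 1.39 FPKM in the others of the group, and Igfbp1 and the acid-labile subunit gene Igfals stayed under the filter. The same markers summed to 19.18 to 28.85 FPKM in control, 2.74 to 7.59 FPKM in L.J. and 3.59 to 18.84 FPKM in busulfan, with 1 at 0 in L.J. replicate 2 and 2 at 0 in busulfan replicate 3. The part of these transcripts in the level of Igf1 was not tested.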
